A study of Mus musculus with 45 samples.

Results

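The mitochondrial genome of the mouse carries 37 genes, and their transcripts were followed here in 18 RNA-seq libraries of pre-implantation embryos and naive embryonic stem (ES) cells. Members were taken as every gene whose symbol starts with mt-, which gave 37 of the 55385 genes in the deposited tables: 13 messenger RNAs, 2 ribosomal RNAs and 22 transfer RNAs. All embryos and cells were Gabpa dTAG/dTAG, so that both copies of Gabpa encode a protein fused to the FKBP F36V tag, and the DMSO controls carry the tag too. The small molecule dTAG13 recruits a ubiquitin ligase to the tag and so removes the protein, and the comparison asks what follows its loss at each stage. Late 2-cell embryos were cultured with 1 μM dTAG13 or DMSO from 6 to 30 h post fertilization (hpf), with 3 libraries for each treatment. Morulae received 1 μM dTAG13, or the solvent DMSO, from 42 hpf, with 2 libraries each. The inner cell mass (ICM) at embryonic day 4.5, which holds epiblast and primitive endoderm, was isolated by immunosurgery from blastocysts given 1 μM dTAG13 or DMSO from 84 to 100 hpf, with 2 libraries each. The 2iES libraries came from E14-derived ES cells grown in 2i and LIF, with 0.5 μM dTAG13 for 24 h or DMSO and 2 libraries each. The mice had been backcrossed to C57BL/6J, and the ES line was made from single clones. Replicates of the embryo and ES cell RNA-seq are described as biological replicates for every stage but morula, where the labels alone number them. How cultures or pools of embryos were kept apart is not given in the sources used here, so p-values measure the spread between these libraries.

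Mitochondrial DNA is transcribed from both strands as long precursors, and the tRNAs that lie between most messenger RNAs are cut out to release them. The 13 proteins it encodes are core subunits of the respiratory chain and of ATP synthase, and the 12S and 16S rRNAs (mt-Rnr1 and mt-Rnr2) form the mitochondrial ribosome that translates them. Everything else the system needs, including the RNA polymerase POLRMT and the factor TFAM that packages the DNA and starts transcription, is encoded in the nucleus, and GABPA was also described as nuclear respiratory factor 2 for its binding at such nuclear genes.

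The genome is 16299 bases long in GRCm38, of which 94.3% lies inside an annotated gene, and neighbouring genes share bases. The genes mt-Atp8 and mt-Atp6, which encode subunits 8 and 6 of ATP synthase, overlap by 43 bases, and this overlap is shown because reads inside it belong to both. It is in capitals in the stretch chrM:7902-7994, plus strand.
mt-Atp8/mt-Atp6: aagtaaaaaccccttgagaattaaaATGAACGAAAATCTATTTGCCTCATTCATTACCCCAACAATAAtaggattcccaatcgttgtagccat
The gene mt-Ts1, a serine tRNA transcribed from the minus strand, shares 3 bases with the end of mt-Co1, which encodes subunit 1 of cytochrome c oxidase. It is in capitals at chrM:6850-6938, plus strand, and is shown because mt-Ts1 held the most counts of the 22 tRNAs although the library type does not record strand.
mt-Co1/mt-Ts1: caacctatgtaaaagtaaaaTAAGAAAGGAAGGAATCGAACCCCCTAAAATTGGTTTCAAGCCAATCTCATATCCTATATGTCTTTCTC

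A stretch of nuclear chromosome 1 repeats part of this genome almost letter for letter, which decides how the counts of some members can be read. The stretch chr1:24611535-24616184 aligned on its minus strand to chrM:6394-11042, as blocks of 3435 and 1222 bases that held 1 and 0 substitutions. The single substitution is T9461C, with the mitochondrial base first and the position counted along chrM. The blocks are offset from each other where they meet, so the stretches also differ in length. It lies at the third base of mt-Nd3, which encodes a complex I subunit, and is in capitals in the first 60 bases of mt-Nd3 (chrM:9459-9518, plus strand) and in the matching stretch of its nuclear copy Gm28438 (chr1:24613060-24613119, minus strand).
mt-Nd3: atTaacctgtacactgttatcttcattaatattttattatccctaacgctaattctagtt
Gm28438: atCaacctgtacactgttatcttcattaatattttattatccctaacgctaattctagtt
No base separates mt-Co3, which encodes subunit 3 of cytochrome c oxidase, from Gm28437 over the stretch shown (chrM:8727-8786, plus strand, and chr1:24613792-24613851, minus strand).
mt-Co3: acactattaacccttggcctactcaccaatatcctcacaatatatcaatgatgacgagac
Gm28437: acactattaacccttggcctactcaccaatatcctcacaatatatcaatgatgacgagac
The same holds for mt-Nd4l, which encodes a small complex I subunit, and Gm10222 (chrM:9997-10056, plus strand, and chr1:24612521-24612580, minus strand).
mt-Nd4l: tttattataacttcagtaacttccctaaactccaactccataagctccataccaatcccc
Gm10222: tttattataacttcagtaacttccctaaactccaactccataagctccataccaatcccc

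The deposited counts divide the reads of such pairs between both genes by estimation. Over the 18 libraries Gm10222 held 96.3% of the counts of its pair with mt-Nd4l (86.1 to 100%), Gm28437 held 88.5% of those with mt-Co3 (80.5 to 92.6%), and Gm29216 held 28.1% of those with mt-Co1 (19.4 to 37.0%). The other 4 copies held little, from 0.00275% for the copy of mt-Nd4 to 1.16% for that of mt-Nd3. The row of mt-Nd4l was at 0 in 6 of the 18 libraries although its neighbours mt-Nd3 and mt-Nd4 had counts in every library. The 7 copies together held 8.94 to 9.44% of the summed counts of mitochondrial genes and copies in late 2-cell embryos and 8.46 to 9.93% in morulae. In the ICM they held 20.1 and 20.5% in DMSO against 18.4 and 18.1% in dTAG13, and in 2iES 19.2 and 19.4% against 22.4 and 22.5%. The split within a pair need not move like this summed share. Within the mt-Co3 pair the copy held 89.1 and 90.4% in ICM controls and 92.6 and 91.1% in dTAG13. In 2iES the groups overlapped for that pair, at 91.0 and 88.1% against 89.1 and 86.9%. Values described as having the copies added are therefore given beside the deposited rows: the counts of each gene and its copy were summed, and the FPKM was computed over the length of the mitochondrial gene. Which locus such reads came from cannot be told apart.

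**Figure D1:**
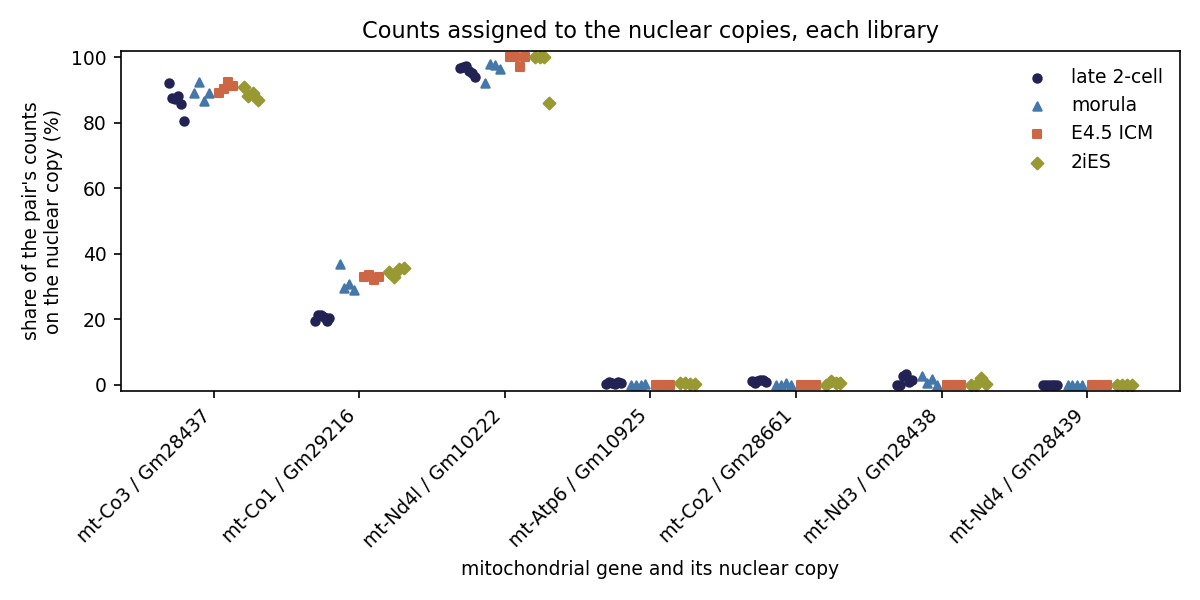
Share of a gene pair's counts (percent, y axis) assigned to the nuclear copy in each of the 18 libraries (points), for the 7 mitochondrial genes that have a copy on chromosome 1. The copies of mt-Co3 and mt-Nd4l held over 80% of their pair's counts in every library, and the copy of mt-Co1 held 19.4 to 37.0%.

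The libraries held 9457933 to 27660132 expected counts. Over 9237 to 12197 expressed genes a group, the counts of ICM replicates differed by 1.62 (DMSO) and 1.69 (dTAG13) times what Poisson sampling gives, against 2.86 to 16.1 in the other groups, and the biological coefficient of variation was 0.0237 in the ICM against 0.159 to 0.284 elsewhere. The 2iES DMSO libraries stood apart from each other in mitochondrial genes: replicate 2 exceeded replicate 1 by a median of 6.12-fold over these genes, whereas 2.20% of 10762 other genes differed more than 2-fold between them. Between the 2iES dTAG13 libraries the median was 0.867-fold. Gabpa messenger RNA was higher after dTAG13 at each stage, by log2 0.52 to 0.95 (edgeR adjusted p = 0.152 in morula, 0.0124 or less elsewhere), which does not report on the protein that dTAG13 removes. In the ICM the summed FPKM of 5 trophectoderm markers was 70.2 to 75.1 in DMSO and 835 to 840 in dTAG13, with 5 of 5 higher, that of 6 pluripotency markers was 529 to 533 and 377 to 383, with 6 of 6 lower, and that of 4 primitive endoderm markers was 222 to 227 and 308 to 312, with 3 higher and 1 lower. In 2iES the pluripotency markers summed to 399.9 to 433 FPKM in DMSO and 281 to 296 in dTAG13, with 2 lower and 1 higher. In late 2-cell embryos 4 oocyte markers summed to 1399 to 1429 and 1767 to 2076 FPKM, with 1 higher. None of these markers was at 0 at these stages, and their part in the mitochondrial values was not tested.

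Mitochondrial transcripts took a larger share of the RNA after dTAG13 in the ICM and in 2iES and a smaller share in morulae, whereas the late 2-cell groups overlapped. The share is the sum of the 37 genes over all expected counts of a library. In late 2-cell embryos it was 9.14, 8.68 and 7.72% in DMSO and 9.14, 10.3 and 8.78% in dTAG13, with means of 8.51 ± 0.727% and 9.40 ± 0.797% (SD, n = 3 each), and the groups overlapped (two-sided exact permutation p = 0.3, where 0.1 is the smallest that 3 against 3 allows). In morulae it was 6.73 and 5.60% in DMSO and 4.47 and 5.25% in dTAG13 (6.16 ± 0.797% and 4.86 ± 0.55%, SD, n = 2 each), and both treated libraries lay below both controls.

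In the ICM the share was 3.88 and 3.78% in DMSO and 6.02 and 5.96% in dTAG13 (3.83 ± 0.0756% and 5.99 ± 0.0454%, SD, n = 2 each), a 1.56-fold difference about as large in both treated libraries. In 2iES it was 0.371 and 2.17% in DMSO and 5.16 and 4.51% in dTAG13 (1.27 ± 1.27% and 4.84 ± 0.459%, SD, n = 2 each). Both treated ES libraries exceeded both controls, by 3.81-fold in the means, and the size of that ratio rests on DMSO replicate 1: the difference was 1.93 on the log2 scale with both controls, 1.16 without replicate 1 and 3.70 without replicate 2. With 2 libraries a group the smallest two-sided exact permutation p is 0.333, which the morula, ICM and 2iES differences all gave. The 95% Wilson interval of the lowest share, 0.369 to 0.374%, shows that counting error, the only error it covers, was small beside the spread between libraries. No spike-in was used, so more mitochondrial RNA and less of other RNA cannot be told apart, nor can fewer cells of a type and less RNA per cell in these bulk samples.

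**Figure D2:**
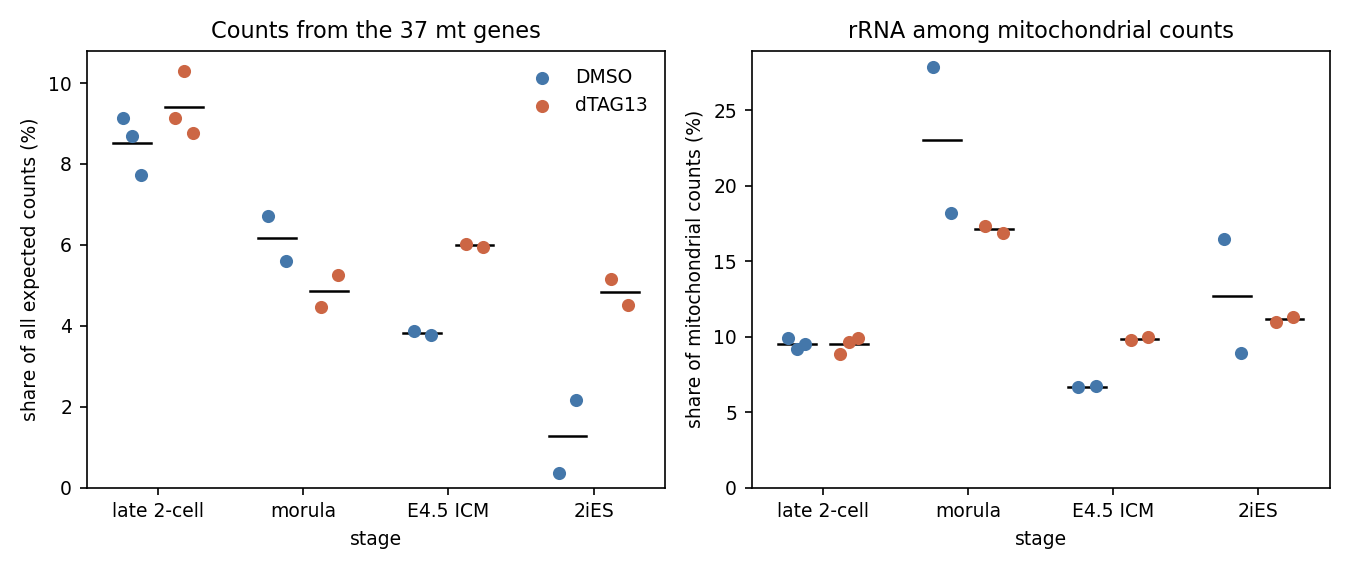
Left, percent of all expected counts that came from the 37 mitochondrial genes; right, percent of mitochondrial counts, nuclear copies added, that came from the 2 rRNAs. Points are libraries and black lines group means, for DMSO and dTAG13 at 4 stages: both treated libraries lie above the controls in the ICM (6.02 and 5.96% against 3.88 and 3.78%) and 2iES on the left, and the first morula control stands out on the right at 27.9%.

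In control libraries the messenger RNA for an ATP synthase subunit led the embryo stages. Among the 13 messenger RNAs and 2 rRNAs, by mean FPKM with copies added, mt-Atp6 ranked first in late 2-cell embryos, morulae and the ICM. In 2iES mt-Co3 ranked first. The level of mt-Atp6 was 39550, 38672 and 33394 FPKM in late 2-cell controls, 14042 and 13189 in ICM controls, and 892 and 6950 in 2iES controls. The level of mt-Co3 was 11627, 11750 and 10539 FPKM, then 12888 and 12582, then 1104 and 6818 in the same groups. The spreads of the 2iES controls cover most differences between neighbours in that order. The 16S rRNA mt-Rnr2 ranked 3 in morulae, at 12033 and 7020 FPKM, and 8 to 10 at the other stages.

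**Figure D3:**
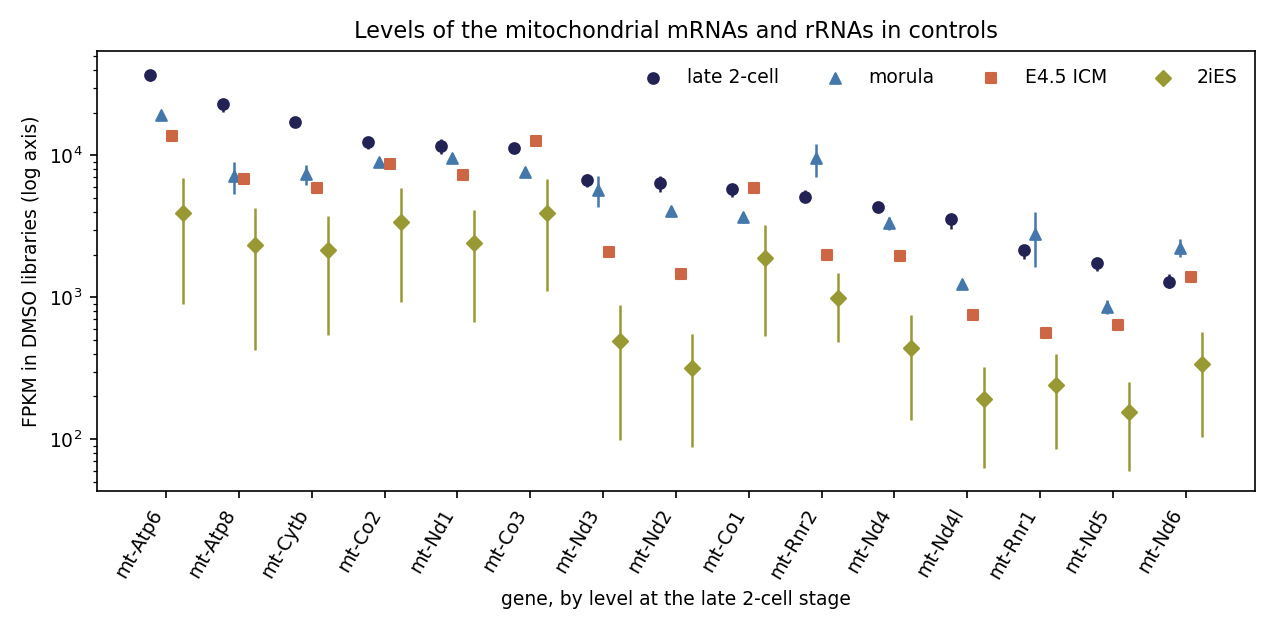
FPKM of the 13 mRNAs and 2 rRNAs in DMSO libraries, nuclear copies added, on a log axis, at 4 stages. Points are means of 2 or 3 libraries and vertical lines run from the lowest to the highest library; mt-Atp6 is highest in the 3 embryo stages, and the longest lines are those of 2iES, where replicate 1 lies far below replicate 2.

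The 16S rRNA was higher in morulae than in the stages before and after. In a fit of the 9 control libraries, mt-Rnr2 was higher in morulae than in late 2-cell embryos by log2 0.93 ± 0.34 (SE; edgeR quasi-likelihood adjusted p = 0.0268) and lower in the ICM than in morulae by log2 -2.40 ± 0.40 (edgeR adjusted p = 0.000386), and mt-Rnr1 was lower at that second step by log2 -2.47. From late 2-cell to morula 7 of 35 members tested were lower, among them mt-Atp8 (log2 -1.54), mt-Nd5 (log2 -0.98) and 5 tRNAs, and 2 were higher (mt-Rnr2 and the glutamate tRNA mt-Te), where 38% of all genes tested were lower and 31.2% higher. From morula to ICM 8 members were lower and 1, the proline tRNA mt-Tp, was higher, where 21% of all genes were lower and 24.6% higher. The 8 were both rRNAs, the complex I genes mt-Nd2 (log2 -1.61), mt-Nd3 and mt-Nd4l, and 3 tRNAs, and the row of mt-Nd4l was at 0 in both ICM controls while its nuclear copy held the counts. From ICM to 2iES 13 members were lower, where 20.7% of all genes were, and they comprised mt-Nd2 (log2 -1.73), mt-Nd4 (log2 -1.67), mt-Nd5 (log2 -1.56), mt-Nd6 (log2 -1.57) and 9 tRNAs. None was higher at that step by edgeR, by an unadjusted p under 0.05 or by DESeq2, where 21.9% of all genes were higher. Stages differ here in cell type, culture and preparation, and leaving out 1 control library moved the counts of lower members between 5 and 13, 3 and 14, and 4 and 20 for the steps in order. The first step gave 13 without either 2iES control, the second 14 without either 2iES control and 3 to 5 without an ICM or a morula control, and the third 4 and 5 without ICM DMSO replicate 1 and 2, 8 without 2iES DMSO replicate 1 and 20 without replicate 2. The higher calls were as unsteady, at 0 to 3 for the first and for the second step.

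In late 2-cell embryos no mitochondrial transcript passed the test once copies were added. The row of mt-Nd4l was called higher, 1 of 35 members tested, where 1.32% of all genes tested were called higher and 7.25% lower. It went from 120, 110 and 79.6 FPKM in DMSO to 167, 191 and 220 in dTAG13 (log2 0.86 ± 0.20, SE; edgeR adjusted p = 0.0252). With Gm10222 added, the same gene gave 3799, 3801 and 3047 FPKM against 3869, 4087 and 3684, and the groups overlapped (log2 0.08; edgeR adjusted p = 0.719). No member was lower by edgeR, by an unadjusted p under 0.05 or by DESeq2, and 2 were higher by an unadjusted p and 2 by DESeq2. The mt-Nd4l call was absent without DMSO replicate 3, dTAG13 replicate 2 or dTAG13 replicate 3 (0 members higher) and 2 members were higher without dTAG13 replicate 1. At the thresholds of the study, which also ask for a 2-fold change and a mean FPKM of at least 1, 0 members were higher, where 0.476% of all genes were.

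With copies added, the other late 2-cell messenger RNAs and the rRNAs had small differences. Cytochrome b, the complex III subunit encoded by mt-Cytb, was at 17638, 17659 and 16533 FPKM in DMSO and 18156, 18099 and 16232 in dTAG13, and the groups overlapped (log2 -0.05 ± 0.06, SE; edgeR adjusted p = 0.704). The 16S rRNA mt-Rnr2 was at 5694, 4949 and 4664 against 5004, 6097 and 5407 FPKM (log2 0.04; edgeR adjusted p = 0.875). Over the 13 messenger RNAs with copies added the log2 differences ran from -0.05 to 0.16. As deposited, the row of mt-Co3 was at log2 0.61, and the tRNAs tested ran from log2 -0.35 to 0.68, and none of these passed. The median over the 35 members was 0.15 on the log2 scale, beside 0.02 over all genes tested, and 30 of the 35 were above 0. The tRNAs mt-Tr and mt-Ts2 were too low to be tested.

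In morulae with copies added the rRNAs had the most negative differences of the 15 mRNAs and rRNAs, and the control libraries disagreed on by how much. The 12S rRNA mt-Rnr1 was at 3971 and 1630 FPKM in DMSO and 1280 and 1613 in dTAG13 (log2 -0.88 ± 0.31, SE; edgeR adjusted p = 0.252). The first control was far above the other 3 libraries, and the second lay just above them. The 16S rRNA mt-Rnr2 was at 12033 and 7020 against 5208 and 5903 FPKM, with no overlap (log2 -0.71 ± 0.23, SE; edgeR adjusted p = 0.226). Without DMSO replicate 1 these differences were log2 -0.12 and -0.29, and without DMSO replicate 2 log2 -1.37 and -1.03, at which 4 members were called lower.

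Messenger RNAs of morulae did not share a direction. With its copy added the level of mt-Nd3 was 7146 and 4304 FPKM in DMSO and 3763 and 3774 in dTAG13. Its deposited row gave log2 -0.54 (edgeR adjusted p = 0.333). That of mt-Cytb was 6183 and 8521 against 7008 and 8825 FPKM (log2 0.17; edgeR adjusted p = 0.77). Of the 25 members tested, 0 were called lower and 0 higher by edgeR and by DESeq2, and 3 were lower and 0 higher at an unadjusted p under 0.05, where edgeR called 0.205% of all genes tested lower and 0.161% higher. The median over the members was log2 -0.17, beside -0.02 over all genes, and 9 of the 25 were above 0. Without mt-Tg, which reached the count minimum of 10 in dTAG13 libraries alone, 8 of 24 were above 0 with a median of log2 -0.20. The 12 members not tested were all tRNAs.

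In the ICM the 13 messenger RNAs and both rRNAs were all higher after dTAG13 once copies were added, and those of complex I rose more than those of complex IV or ATP synthase in size. The 16S rRNA mt-Rnr2 went from 1987 and 1958 FPKM to 4666 and 4662 (log2 1.18 ± 0.02, SE; edgeR adjusted p = 5.16e-36). The 12S rRNA mt-Rnr1, its partner in the mitochondrial ribosome, went from 566 and 552 to 801 and 806 (log2 0.47 ± 0.03, SE; edgeR adjusted p = 3.92e-19). In both genes the replicates lay within a few percent of each other and far from the other group, and the difference between the groups was larger for the 16S than for the 12S rRNA.

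Complex I takes electrons from NADH, and all 7 of its mitochondrial messenger RNAs rose, by log2 0.65 to 0.95 with copies added. The most changed, mt-Nd3, went from 2113 and 2055 FPKM to 4202 and 4008 (edgeR adjusted p = 3.78e-29). Further along the genome, mt-Nd4 went from 1980 and 1922 to 3707 and 3617 (log2 0.85; edgeR adjusted p = 1.14e-30). The highest of them by level, mt-Nd1, went from 7354 and 7171 to 12323 and 11877 (log2 0.68; edgeR adjusted p = 1.28e-28). With copies added the groups of libraries did not overlap for any of the 7. With 2 against 2 libraries such separation gives an exact permutation p no smaller than 0.333. The deposited row of mt-Nd4l was at 0 in 3 of the 4 libraries and could not be tested, while with Gm10222 added it gave 748 and 742 against 1233 and 1205 FPKM (log2 0.69; edgeR adjusted p = 2.56e-19). The gene mt-Nd6, the one complex I gene read from the other strand, rose by log2 0.68.

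Complex III, IV and ATP synthase followed with smaller changes. Cytochrome b (mt-Cytb) went from 6052 and 5827 FPKM to 9247 and 9034 (log2 0.56; edgeR adjusted p = 8.84e-26). The catalytic subunit of cytochrome c oxidase, mt-Co1, went from 5980 and 5849 to 7967 and 7729 with its copy added (log2 0.35), and mt-Co2 rose by log2 0.36. The ATP synthase genes mt-Atp6 and mt-Atp8 rose by log2 0.39 and 0.33, mt-Atp6 from 14042 and 13189 to 18822 and 18169 FPKM. The 5 genes from mt-Co1 to mt-Co3 lie next to each other in the genome apart from tRNAs and had the 5 smallest changes among the 15, between log2 0.33 and 0.39. The difference between gene groups was not tested.

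The subunit 3 gene mt-Co3 depended on where its reads were placed. Its deposited row was at 1411 and 1213 FPKM in DMSO and 1299 and 1482 in dTAG13, and the groups overlapped (log2 0.03 ± 0.04, SE; edgeR adjusted p = 0.49). That value turned to log2 -0.0765 without DMSO replicate 2 and -0.0771 without dTAG13 replicate 2, each fit leaving a single library in that group. With Gm28437 added the level was 12888 and 12582 against 17498 and 16721 FPKM, with no overlap (log2 0.37 ± 0.02, SE; edgeR adjusted p = 6.73e-21).

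Of the 29 members tested in the ICM, 24 were called higher (20 by DESeq2) and 0 lower (0 at an unadjusted p under 0.05 and 0 by DESeq2), where 38.4% of all genes tested were called higher and 38.5% lower, so most genes passed this test in one direction or the other. The other 8 members, mt-Nd4l and 7 tRNAs, were too low to be tested. The 24 include 6 of 7 tRNAs that reached the count minimum in dTAG13 libraries alone and so had to be higher there. At those thresholds 8 members were higher, where 12.1% of all genes were, but 6 of the 8 are these tRNAs and the other 2 are mt-Rnr2 and the alanine tRNA mt-Ta. The median over the members was log2 0.68, beside 0.01 over all genes, and 29 of 29 were above 0. Without the 7 tRNAs whose direction the minimum fixed, 18 of 22 were called higher, 22 of 22 were above 0 and the median was log2 0.65. When the 18 libraries shared one estimate of spread, 5 members passed, of which 4 were tRNAs and the other was mt-Rnr2 (log2 1.19; edgeR adjusted p = 0.00844), and mt-Nd3 no longer passed (log2 0.96; edgeR adjusted p = 0.174).

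**Figure D4:**
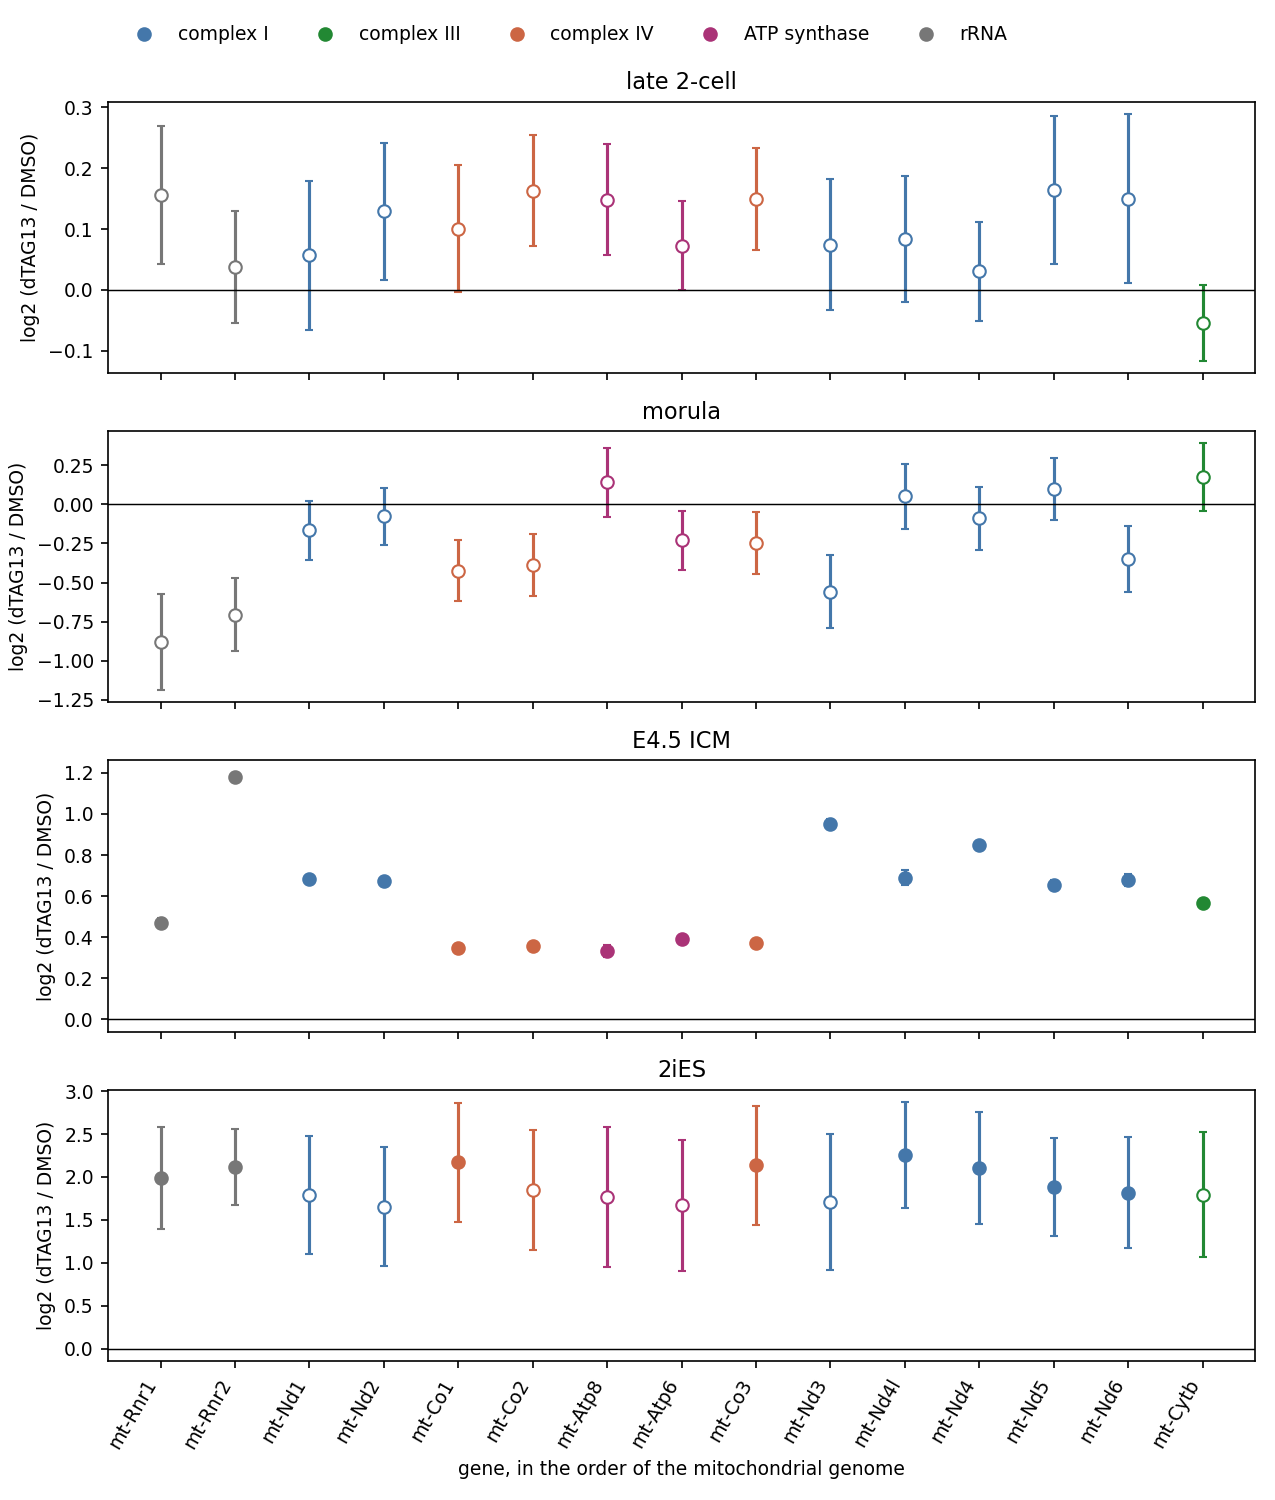
Log2 dTAG13 over DMSO of the 13 mRNAs and 2 rRNAs, nuclear copies added, in genome order, one panel a stage with its own y axis. Points are edgeR estimates, bars their SE, filled points have an adjusted p under 0.05 and colours mark the complex or rRNA: all 15 are filled and above 0 in the ICM, all are above 0 with long bars in 2iES, and none is filled in late 2-cell embryos or morulae.

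In 2iES the mitochondrial messenger RNAs had the largest differences of the series, on the most variable controls. With copies added the 13 messenger RNAs ran from log2 1.65 to 2.26. The level of mt-Co1 was 534 and 3260 FPKM in DMSO and 9261 and 8086 in dTAG13 with its copy, and its deposited row rose by log2 2.11 ± 0.71 (SE; edgeR adjusted p = 0.0402). The level of mt-Rnr2 was 488 and 1486 against 4593 and 4122 (log2 2.11 ± 0.45, SE; edgeR adjusted p = 0.00714). That of mt-Rnr1 was 85.8 and 398 against 1027 and 915 (log2 1.99 ± 0.60, SE; edgeR adjusted p = 0.0276). For all 3 genes both treated libraries were above both controls, and the controls differed from each other by more than the treated libraries did.

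Complex I gave mt-Nd4 at 137 and 745 FPKM in DMSO against 2091 and 1757 in dTAG13 (log2 2.10; edgeR adjusted p = 0.0319). Its largest subunit gene mt-Nd5 was at 59.7 and 254 against 642 and 536 (log2 1.88; edgeR adjusted p = 0.0282). For mt-Nd1, at 671 and 4126 against 8973 and 7796, the test was not passed (log2 1.79; edgeR adjusted p = 0.0641). None of these groups overlapped, and nor did those of the genes for complex III and ATP synthase, which did not pass either. Separation of 2 against 2 libraries allows no exact permutation p below 0.333. Cytochrome b (mt-Cytb) was at 542 and 3772 against 8109 and 7071 FPKM (log2 1.80; edgeR adjusted p = 0.0757), and mt-Atp6 at 892 and 6950 against 13587 and 11426 (log2 1.67; edgeR adjusted p = 0.105).

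Of the 19 members tested in 2iES, 7 were called higher (mt-Rnr1, mt-Rnr2, mt-Co1, mt-Nd4, mt-Nd5 and the tRNAs mt-Ts1 and mt-Te; 4 by DESeq2) and 0 lower (0 at an unadjusted p under 0.05 and 0 by DESeq2), where 26.5% of all genes tested were called higher and 28.1% lower. The 18 members not tested were mt-Nd4l and 17 tRNAs. With copies added 10 were higher, mt-Co3 (1104 and 6818 against 18508 and 16525 FPKM) and mt-Nd4l (62.4 and 322 against 987 and 798 FPKM) among those that passed. The median over the members was log2 1.80, beside 0.03 over all genes, and 19 of 19 were above 0. When the 18 libraries shared one estimate of spread, 19 members passed, including mt-Nd4l and the tRNA mt-Ti, which the stage fit could not test. Also among them was mt-Nd1 (log2 1.84, edgeR adjusted p = 0.00408). The low DMSO replicate 1 carried much of the size: without it mt-Nd1 gave log2 0.98, mt-Rnr1 1.25, mt-Rnr2 1.5 and mt-Co1 1.30, and without DMSO replicate 2 they gave 3.58, 3.44, 3.09 and 3.93. Counts of calls also moved: 18 members were called higher without DMSO replicate 1 and 18 without DMSO replicate 2, 17 without dTAG13 replicate 1 and 6 without dTAG13 replicate 2.

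Within the mitochondrial RNA, the rRNA share was higher in the treated ICM and lower in treated morulae, and the groups overlapped at the other stages. In the ICM the 2 rRNAs made up 6.65 and 6.73% of mitochondrial counts in DMSO and 9.76 and 9.98% in dTAG13, with copies added. In late 2-cell embryos the values were 9.89, 9.21 and 9.54% against 8.88, 9.67 and 9.93%, which overlapped. In morulae they were 27.9 and 18.2% against 17.4 and 16.9%, and in 2iES 16.5 and 8.93% against 11.0 and 11.3%, where the treated libraries lay between the controls. With 2 against 2 libraries no exact permutation p below 0.333 is possible for these shares, and with 3 against 3 none below 0.1.

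Transfer RNAs were rare in these libraries, which prime on poly(A) tails, and their values are counts because their effective length for this method was 0 to 3.14 bases. The 22 genes held 294 to 4361 counts a library, 0.119 to 0.295% of mitochondrial counts, and yet 32.1 to 54.9% of mitochondrial TPM through that short length. Genes read from the minus strand held 77.8 to 98.6% of the tRNA counts and 3 genes (mt-Ts1, mt-Tq and mt-Te) held 70.1 to 97.0%. Precursors of the plus strand cover the same bases, and without strand their reads cannot be told apart from those of the tRNA.

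The 3 most counted tRNAs were higher in the treated ICM. The serine tRNA mt-Ts1, whose sequence is shown with the end of mt-Co1, had 1691 and 1515 counts in ICM controls and 2285 and 2541 in dTAG13 (log2 0.64 ± 0.04, SE; edgeR adjusted p = 4.84e-16). In 2iES it had 215 and 968 against 2202 and 1736 (log2 1.98; edgeR adjusted p = 0.0248). The glutamine tRNA mt-Tq had 517 and 517 against 626 and 755 counts in the ICM (log2 0.46; edgeR adjusted p = 1.7e-06). The glutamate tRNA mt-Te rose from 233 and 251 to 368 and 407 counts in the ICM (log2 0.72). The groups of libraries did not overlap for any of these, although 2 against 2 libraries allow no exact permutation p below 0.333. The aspartate tRNA mt-Td had 4 and 3 counts in ICM controls and 22 and 27 in dTAG13, and the histidine tRNA mt-Th 2 and 5 against 17 and 19. These last rest on few counts and were tested only because they reached the minimum in dTAG13.

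Tests of whether the change itself differed between stages passed for few members in a fit of all libraries. More members passed between the ICM and each earlier embryo stage when only the stages compared were fitted. In one fit of the 18 libraries with 35 members tested, 3 differed between late 2-cell embryos and the ICM (mt-Rnr2, mt-Td and mt-Th), 1 between morulae and the ICM (mt-Rnr2) and 1 between the ICM and 2iES (the deposited row of mt-Co3), where 20.3, 16.1 and 17.3% of all genes tested differed. Between late 2-cell embryos and morulae 0 differed by edgeR (0 at an unadjusted p under 0.05), where 6.47% of all genes did. The upward change of mt-Rnr2 in the ICM beside morulae, log2 1.82 ± 0.45 (SE; edgeR adjusted p = 0.00941), was called with each of 17 of the 18 libraries left out in turn, but not without morula DMSO replicate 1 (log2 1.41; edgeR adjusted p = 0.0681).

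Nuclear genes for mitochondrial transcription and RNA handling mostly had lower values after dTAG13 in the ICM and in 2iES, where mitochondrial RNA was higher. Of 31 listed genes 30 were found and tested: 21 fell and 4 rose in the ICM, 17 fell and 1 rose in 2iES, and 8 fell and 0 rose in late 2-cell embryos (0 higher at an unadjusted p under 0.05 and 0 by DESeq2). Over all genes tested, 38.5% fell and 38.4% rose in the ICM, 28.1 and 26.5% in 2iES, and 7.25 and 1.32% in late 2-cell embryos. In morulae 0 fell and 0 rose by edgeR and by DESeq2, with 2 lower and 4 higher at an unadjusted p under 0.05. Their median log2 differences were -0.40, 0.27, -0.48 and -0.74 from late 2-cell embryos to 2iES. These calls rest on counts, and FPKM did not always follow. The core gene Tfb2m was called lower in the ICM (log2 -0.28, edgeR adjusted p = 0.00029). Its mean FPKM there was 21.5 in DMSO and 24.3 in dTAG13.

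The DNA-packaging transcription factor gene Tfam fell at 3 stages. In late 2-cell embryos it was at 13.8, 14.9 and 11.3 FPKM in DMSO and 2.35, 3.00 and 7.05 in dTAG13, with no overlap (log2 -2.0 ± 0.30, SE; edgeR adjusted p = 0.00188). It fell by 1.06 on the log2 scale in the ICM (edgeR adjusted p = 4.15e-22) and by 1.13 in 2iES (edgeR adjusted p = 0.000283), and was at log2 -0.31 in morulae (edgeR adjusted p = 0.53). Slirp, whose protein stabilises mitochondrial messenger RNAs, fell by 1.44, 1.51 and 1.66 in late 2-cell embryos, ICM and 2iES. The polymerase gene Polrmt was at log2 -0.50, -0.34, -0.58 and -0.79 from late 2-cell embryos to 2iES (edgeR adjusted p = 0.144, 0.631, 0.0011 and 0.0435). Its ICM levels overlapped, at 11.6 and 12.2 FPKM in DMSO against 12.4 and 10.9 in dTAG13. The elongation factor gene Tefm was at log2 0.05, 0.36, -0.95 and -0.87, and passed in the ICM and 2iES alone. The RNA-degrading enzyme gene Pnpt1 was at log2 -0.84, 0.53, -0.59 and -0.74 (edgeR adjusted p = 0.359, 0.363, 3.25e-11 and 0.00234). The genes Lrpprc, whose protein binds SLIRP, Mtpap, the mitochondrial poly(A) polymerase, and Supv3l1, a helicase of RNA turnover, passed the test at no stage. These values sit beside the mitochondrial ones as measured, and no relation between them was tested.

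**Figure D5:**
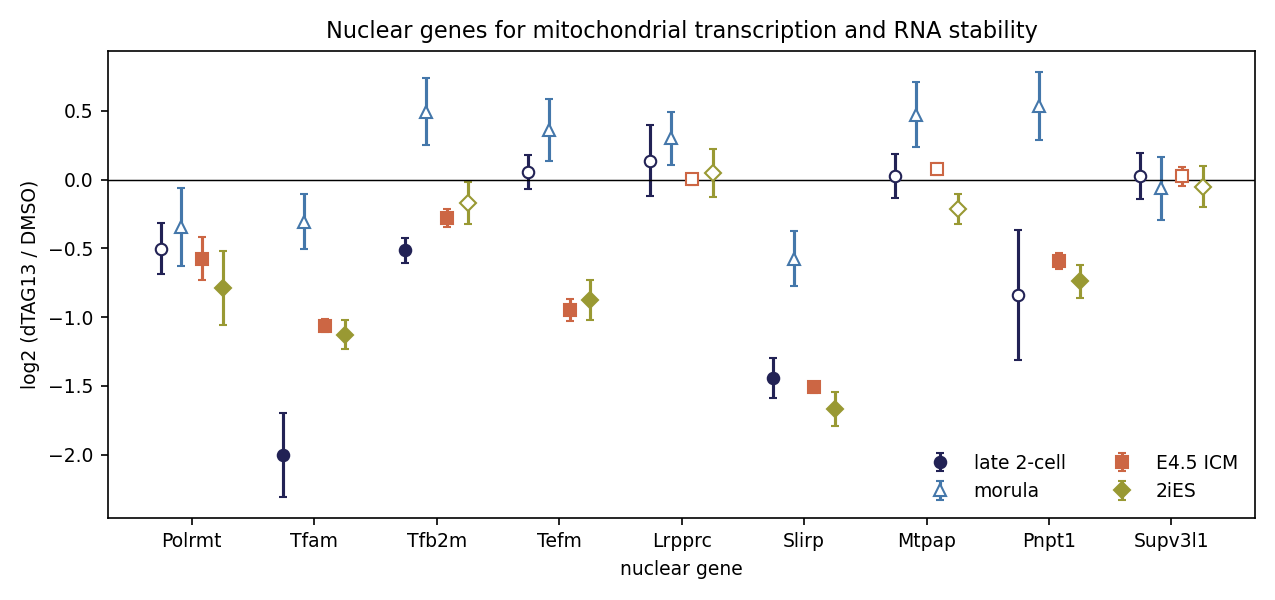
Log2 dTAG13 over DMSO of 9 nuclear genes for mitochondrial transcription and RNA handling at 4 stages. Points are edgeR estimates, bars their SE, and filled points have an adjusted p under 0.05: Tfam and Slirp are filled and below 0 in late 2-cell embryos, ICM and 2iES.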

How the data were processed

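For the 18 RNA-seq libraries the authors deposited RSEM gene tables, made from reads trimmed with Trimmomatic 0.39 and mapped by STAR to GRCm38 (SMART-Seq v4 with Nextera XT, not stranded). Each deposited table gives an expected count, a TPM and an FPKM per gene. The other samples of the series were not used here. The 37 members and all gene lists were chosen with earlier results of these data known. The genes named are the 13 messenger RNAs, the 2 rRNAs, the 3 tRNAs with the most counts, Gabpa, 9 core genes of the nuclear list and the nuclear copies with a mean of at least 10 counts; other tRNAs were named after their values were seen, and 241 identifiers had no name.

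Expected counts were rounded, and genes with at least 10 counts in as many libraries as the smaller group has were tested stage by stage with edgeR 4.0.16 (TMM, quasi-likelihood) in R 4.3.3, with Benjamini-Hochberg adjustment over all genes tested and a call at an adjusted p under 0.05. Control steps were fitted on the 9 control libraries, and differences of change between stages on the 18. Shares were compared by exact permutation (scipy 1.17.1). Alternatives were DESeq2 1.42.0, other scaling, no filter, the study's thresholds, copies added, replicate blocks and each library left out, and the steps were tested on simulated data. Nuclear copies are genes outside the mitochondrial genome in which at least 50% of 31-base words match it. With 9457933 to 27660132 counts a library, counting error was small for the abundant members and large for most tRNAs.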

Additional observations from a re-analysis of the deposited data

Results flagged for a closer look

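The change after dTAG13 was compared between stages in one edgeR fit of the 18 libraries, and 5 differences passed among the 35 members tested in each pair of stages. The 16S rRNA mt-Rnr2 changed more upward in the ICM than in morulae by log2 1.82 ± 0.45 (SE; edgeR adjusted p = 0.00941), where 16.1% of all genes differed, and the call was lost without morula DMSO replicate 1 (log2 1.41; edgeR adjusted p = 0.0681).

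Between late 2-cell embryos and the ICM, where 20.3% of all genes differed, mt-Rnr2 changed more in the ICM by log2 1.17 ± 0.41 (SE; edgeR adjusted p = 0.04997), mt-Td by log2 2.50 ± 0.73 (SE; edgeR adjusted p = 0.0225) and mt-Th by log2 2.12 ± 0.73 (SE; edgeR adjusted p = 0.0471). With each of the 18 libraries left out in turn, mt-Rnr2 kept the call in 4 fits, mt-Td in 14 and mt-Th in 5, and all 3 lost it without any one of the 4 ICM libraries. Both tRNAs had at most 5 counts in ICM controls and reached the count minimum at that stage in dTAG13 libraries alone.

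Between the ICM and 2iES, where 17.3% of all genes differed, the deposited row of mt-Co3 changed more in 2iES by log2 2.19 ± 0.74 (SE; edgeR adjusted p = 0.0488). With its nuclear copy added the difference was log2 1.80 (edgeR adjusted p = 0.0528), and it was log2 1.35 without 2iES DMSO replicate 1 and 4.38 without replicate 2. The call held in 3 of the 18 fits that left out 1 library.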

How the results depend on the processing

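Among single genes 508 settings kept direction and side of the threshold, 86 gained and 31 lost the call, and the deposited row of mt-Co3 in the ICM reversed to log2 -0.0765 without DMSO replicate 2 and -0.0771 without dTAG13 replicate 2 (-0.0771 to 0.13 leaving out 1). In 2iES the 7 higher members became 4 by DESeq2, 12 by DESeq2 size factors or upper quartile scaling, 18 with no filter, 19 with the 18 libraries in 1 fit, and 6 to 18 with 1 library left out. In the ICM the 24 became 5 with the 18 libraries in 1 fit and 8 at the study's thresholds (21 to 23 leaving out 1, with 0 to 1 lower). In late 2-cell embryos the 1 higher became 2 by DESeq2 or no filter, and 0 with 18 libraries, copies added or the study's thresholds (0 to 2 leaving out 1). In morulae the 0 lower became 2 with no filter and 0 to 4 leaving out 1. The replicate numbers did not pair the libraries (correlations of deviations 0.0193 to 0.0546 in late 2-cell embryos, 0.00996 in morulae, 0.0102 in the ICM and -0.133 in 2iES). With a replicate block 2 members were higher in late 2-cell embryos and 17 in 2iES. The crossed pairing in 2iES, added after the data were seen, gave 17.

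For control steps, the 7, 8 and 13 lower members became 4 and 5 by DESeq2 at the first 2 steps, 14, 13 and 21 with no filter, and 5 to 13, 3 to 14 and 4 to 20 leaving out 1. The 2 and 1 higher became 1 and 0 by DESeq2, 4 and 2 with no filter, 1 with a fold of 2 at the first, 0 with DESeq2 size factors or with scaling that left out the mitochondrial genes at the second, and 0 to 3 leaving out 1 at both. Members whose change differed numbered 0 (ICM and 2iES), 9 (late 2-cell and ICM) and 13 (morula and ICM) in fits of the 2 stages alone, and 0 and 1 for the first 2 pairs by library totals or by scaling without the mitochondrial genes. These counts also moved when 1 library was left out. The log2 ratio of the ICM share, 0.64, was 0.61 with copies added, 0.58 for messenger RNAs alone and 0.55 in TPM (0.62 to 0.66 leaving out 1). It was 1.16 to 3.70 in 2iES, 0.073 to 0.20 in late 2-cell embryos and -0.47 to -0.20 in morulae. The rRNA share gave log2 0.52 in the ICM without copies (0.55 to 0.58 leaving out 1), -0.56 to 0.32 in 2iES, -0.041 to 0.038 in late 2-cell embryos and -0.70 to -0.091 in morulae. Upper quartile scaling shifted the members by log2 0.12 in late 2-cell embryos, 0.10 in the ICM and 0.18 in 2iES. The cause of these moves was not tested.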
